A study of Homo sapiens with 9 samples.

Results

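The library labelled A2ko was compared with 3 Control libraries of CAL27, an established line of human tongue squamous carcinoma cells. Expression was available for 78894 Ensembl gene identifiers, of which 17100 had at least 1 TPM (a transcript's share of the library, corrected for its length and scaled to a total of 1000000) in at least 2 of the 7 distinct libraries of the series. All 17100 entered the comparison as log2(TPM + 1). A gene was counted as different when A2ko was above or below all 3 Control libraries and differed from their mean by at least 1 log2 unit, which is 2-fold in TPM + 1. By this rule 867 genes were counted, 606 of them higher and 261 lower in A2ko.

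Every group is CAL27. The labels describe the series as CRISPR-edited cells and call A2ko a knockout, but they name neither the edited sequence nor an edit in the Control cells, and they do not say whether A2ko is a clone or a pool. The targeted site could therefore not be checked in the data. No treatment is given for either group. Cells grew in DMEM with 10% FBS at 37 °C, TRIzol was used to extract RNA, and 2 ug per sample went into polyA libraries that mark strand with dUTP. The 2 files deposited for A2ko hold the same value for all 78894 identifiers, and both carry in their header the library name that the labels give to A2ko replicate 2. They were counted as 1 library. No spread between A2ko cultures can be given, no p-value was computed, and every difference below is that of 1 library from the 3 Control libraries. The labels do not say whether those 3 came from separate cultures, so their spread may be technical. Values are set beside those of the 2 further knockouts of the series, A8ko (1 distinct library) and C9ko (2 libraries), whose edited sequences are not named either.

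CAL27 cells carry the programme of stratified squamous epithelium. In such epithelium basal cells make keratins 5 and 14, cells that leave the basal layer switch to other keratins, and the outermost layers cross-link small proline-rich proteins and involucrin into a cornified envelope under the plasma membrane. Wounded or hyperproliferative epithelium makes keratins 6, 16 and 17 instead. Matrix metalloproteinases are secreted or membrane-bound zinc proteases that cut collagens and other matrix proteins, and tissue inhibitors of metalloproteinases (TIMPs) bind and block them.

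Squamous markers were present in every library: all 12 tested, among them EPCAM, CDH1, TP63 and KRT5. KRT5, KRT14 and PKP1 of these 12 were counted lower in A2ko. Markers of other cell types were mostly under the minimum level, with COL3A1, PTPRC, MS4A1, PECAM1 and KDR at no more than 0.0232 TPM. Of 8 fibroblast markers 3 passed the minimum level and none was counted, and of 8 leukocyte markers only CD68 and CD14 passed. Summed over the list, fibroblast markers stood at 10.8 to 12.2 TPM in Control and 17.7 TPM in A2ko, and leukocyte markers at 42.3 to 50.4 and 59.8 TPM. One of 6 endothelial markers, CDH5, was counted higher (4.27, 3.61 and 3.21 TPM in Control 1 to 3 and 12.6 TPM in A2ko), and one of 6 neural and melanocyte markers, PMEL (1.444 to 1.503 against 4.08 TPM), which missed the limit after median-of-ratios scaling (0.91). The part of other cell types in the differences was not tested. As the libraries are bulk RNA, fewer cells of a type and less RNA per cell cannot be told apart.

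Of all tested genes 5.07% were counted, 3.54% higher and 1.53% lower. The same rule applied to each Control library against the other 2 counted 105, 113 and 110 genes, which is 0.614%, 0.661% and 0.643%. On log2(TPM + 1) the correlation across the 17100 genes was 0.991 to 0.992 between Control libraries and 0.969 to 0.970 between A2ko and a Control library. Genes are not independent replicates, and these values describe the libraries only. A2ko had 32837 identifiers above 0 where the Control libraries had 31201 to 31385, and 744 identifiers reached 1 TPM in A2ko and in no other distinct library, against 81 to 112 for a Control library. Those 744 are outside the 17100. The depth of the libraries is unknown, since TPM keeps no read counts. The median difference over all tested genes was 0.12 log2 units, and 69.9% of the counted genes were higher in A2ko. After scaling the libraries by the median of ratios that median was -0.03, the count was 781, and 54.4% were higher. Of these 781 genes, 686 were among the 867 in the same direction. The predominance of higher genes thus depends on the scaling, while the differences described below are mostly far larger than the shift.

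**Figure D1:**
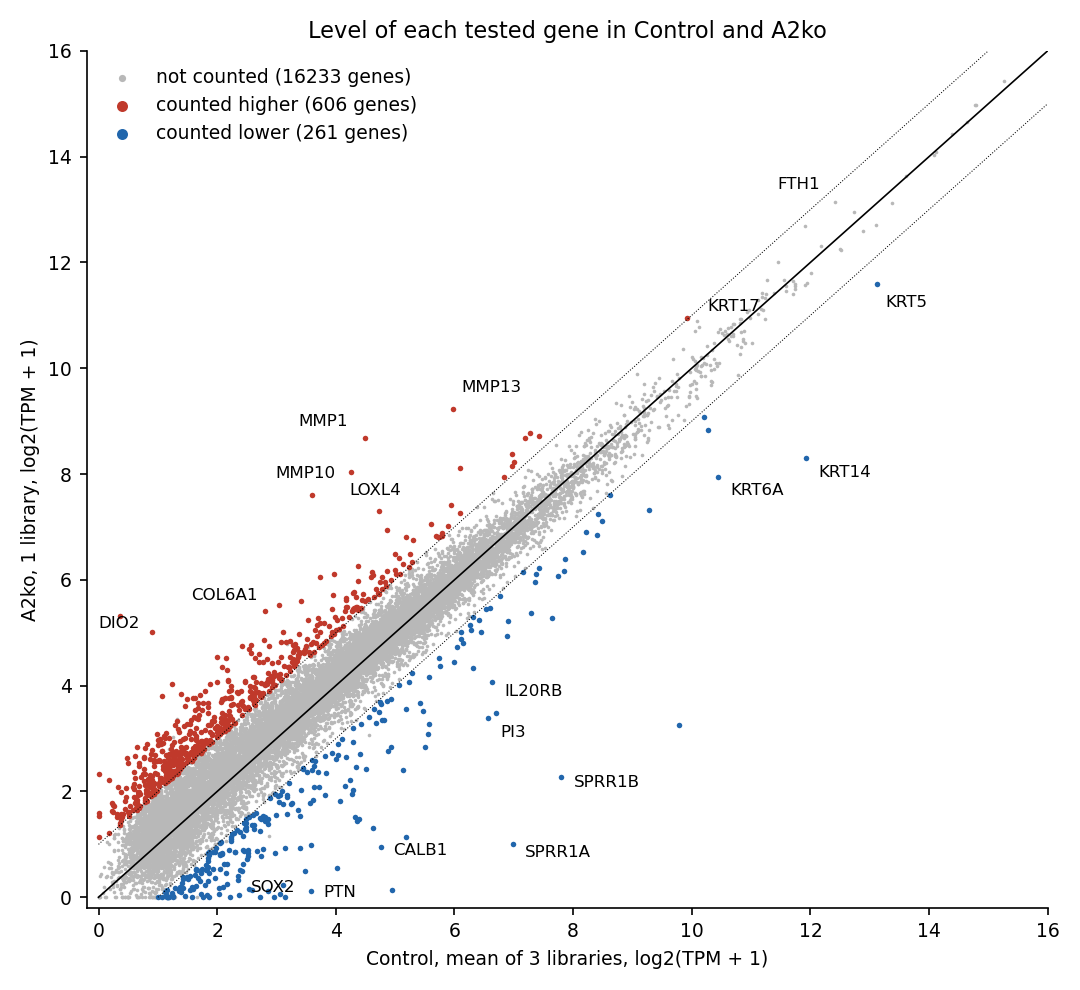
Level of each of the 17100 tested genes in A2ko (vertical axis, 1 library) against the mean of the 3 Control libraries (horizontal axis), both in log2(TPM + 1). The solid line marks equal levels and the dotted lines 1 log2 unit on either side; 606 genes counted higher are red, 261 counted lower are blue, and MMP1, MMP10 and MMP13 stand far above the line while SPRR1A, SPRR1B and KRT14 stand far below it.

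Among genes with a symbol, 3 of the 4 with the largest gain in A2ko were secreted proteases that lie together on chromosome 11. MMP1, interstitial collagenase, which opens the triple helix of fibrillar collagens, stood at 23.9, 20.2 and 20.3 TPM in Control 1, 2 and 3 and at 408 TPM in A2ko. MMP10, stromelysin 2, which cuts a wide range of matrix proteins and activates other proteases of the family, stood at 18.4, 17.3 and 18.6 TPM in Control and 263 TPM in A2ko. MMP13, collagenase 3, stood at 62.6, 59.8 and 63.6 TPM in Control and 603 TPM in A2ko. In each of these genes the 3 Control values lay close together and the A2ko value stood far above all of them. The differences were 4.19, 3.79 and 3.26 on the log2(TPM + 1) scale, and the A2ko level was 19, 14.5 and 9.72 times the Control mean.

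MMP12, the macrophage elastase, was lower in level but differed the same way, with 1.56, 1.79 and 2.09 TPM in Control and 12.4 TPM in A2ko (2.25 log2 units). MMP3, stromelysin 1, did not pass the minimum level because only A2ko exceeded 1 TPM. It was at 0.225, 0.550 and 0.408 TPM in Control and 2.36 TPM in A2ko. MMP8, the neutrophil collagenase, was listed at 0 in all 4 libraries. All 4 tested collagenases and stromelysins were counted higher, beside 3.54% of all tested genes. Their median difference was 3.53, beside 0.12 over all tested genes. Summed, MMP1, MMP3, MMP10 and MMP13 made up 105, 97.8 and 103 TPM in Control 1 to 3 and 1275 TPM in A2ko, 12.5 times the Control mean of 102 ± 3.77 TPM (SD, n = 3).

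In GENCODE release 29 on GRCh38, MMP10 lies at chr11:102770503-102780628, MMP1 at chr11:102789920-102798160, MMP3 at chr11:102835801-102843803, MMP12 at chr11:102862736-102875034 and MMP13 at chr11:102942995-102955734, all on the minus strand. MMP7, matrilysin, at one end of the row, was at 9.87, 7.59 and 7.30 TPM in Control and 5.83 TPM in A2ko, below the Control range but not counted. MMP20, which makes tooth enamel, reached at most 0.0587 TPM in these libraries, and MMP27 was listed at 0. The pseudogene WTAPP1 overlaps MMP10, MMP1 and part of MMP3 on the other strand. It reached at most 0.0418 TPM in A2ko, and whether the counting used strand is not given in the sources used here.

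The promoter of MMP10 is shown because the gene had one of the largest gains and was in the RefSeq promoter table (GRCh38.p14). The table held no promoter for MMP1, MMP3, MMP12 or MMP13, so MMP10 cannot stand for them. The 250 bases before its start were searched on either strand for TGAGTCA, the AP-1 motif bound by Fos and Jun dimers, and for the TATA box letters TATAAA. They hold TATAAA with its first base 31 bases before the start and no TGAGTCA. The 200 bases nearest the start, chr11:102780629-102780828 on the minus strand, are printed. Over all 27305 promoters of the table, 4.16% hold TGAGTCA and 11.1% hold TATAAA in the 250 bases before the start. Written 5′ to 3′, with no motif capitalised, the sequence reads:
MMP10: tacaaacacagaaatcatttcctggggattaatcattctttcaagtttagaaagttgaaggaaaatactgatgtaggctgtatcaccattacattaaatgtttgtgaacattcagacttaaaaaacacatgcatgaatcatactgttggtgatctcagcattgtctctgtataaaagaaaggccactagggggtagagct

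Of the 4 TIMPs, 3 were counted higher together with the proteases, beside 3.54% of all tested genes. TIMP3, the inhibitor that stays bound to the matrix, stood at 3.57, 2.83 and 2.69 TPM in Control and 15.7 TPM in A2ko (2.06 log2 units). TIMP1 stood at 14.2, 14.7 and 13.99 TPM in Control and 42.7 TPM in A2ko. TIMP2 stood at 20.5, 19.2 and 18.2 TPM in Control and 50.3 TPM in A2ko. The A2ko value exceeded every Control value in each of these inhibitors, while TIMP4 (1.17 to 1.72 TPM in Control, 1.30 TPM in A2ko) lay inside the Control range. TIMP3 lies within SYN3 on the opposite strand, so reads from the pair could be mixed if strand was not used.

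Other metalloproteinases did not follow MMP1. Of 7 tested, MMP2, MMP7, MMP11, MMP14, MMP15, MMP17 and MMP28, none was counted. MMP14, a membrane-anchored collagenase, stood at 70.3 to 74.7 TPM in Control and 82.3 TPM in A2ko, and MMP28, epilysin, at 8.64 to 9.99 TPM in Control and 4.56 TPM in A2ko. MMP9, gelatinase B, did not pass the minimum level. Over the list of other metalloproteinases and inhibitors, 3 of 11 tested genes were counted, all higher and all TIMPs. Of all tested genes, 3.54% were counted higher. The list median was 0.44, beside 0.12 over all tested genes.

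**Figure D2:**
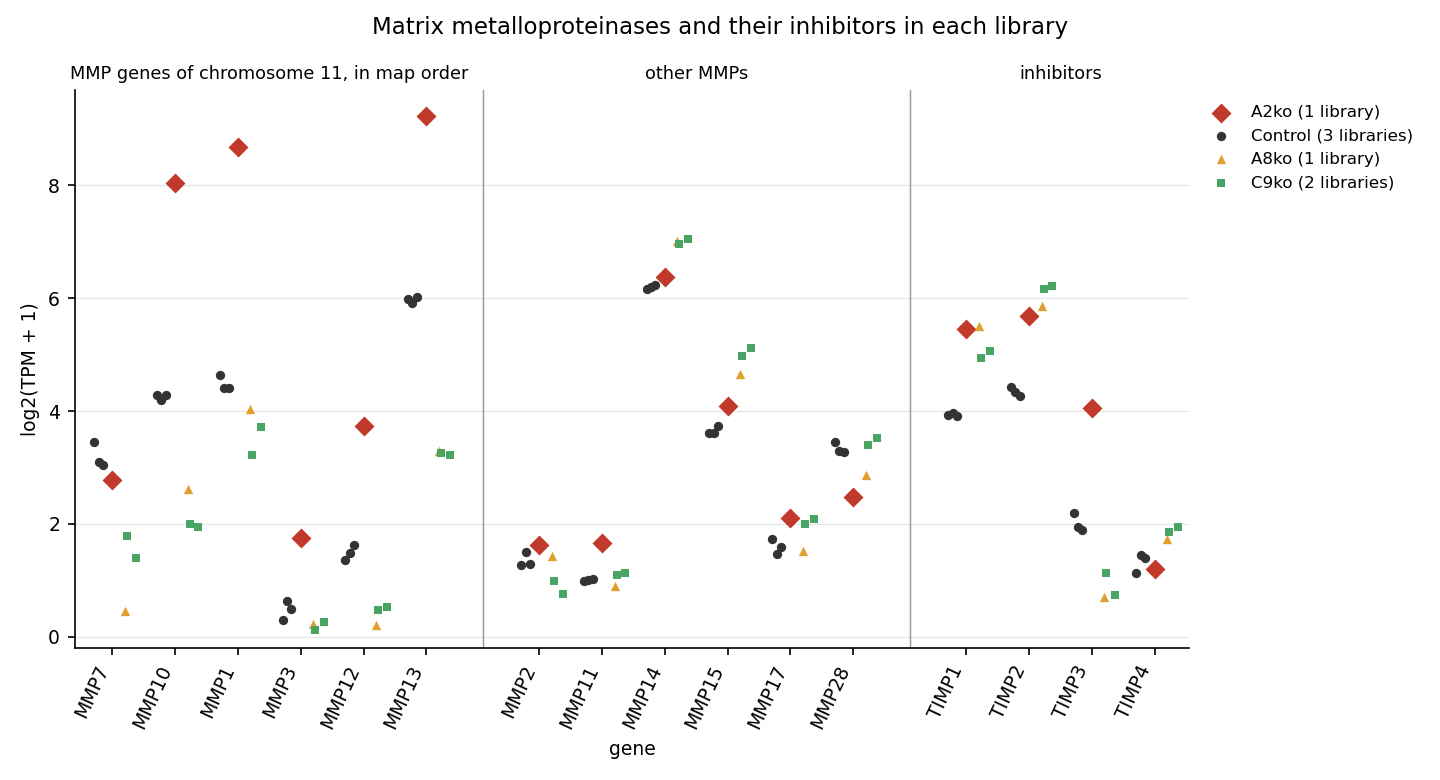
Level in log2(TPM + 1) (vertical axis) of metalloproteinases and TIMPs (horizontal axis) in each distinct library: red diamonds are A2ko, black circles the 3 Control libraries, orange triangles A8ko and green squares the 2 C9ko libraries. MMP10, MMP1, MMP12 and MMP13 are above Control in A2ko and below Control in every A8ko and C9ko library, whereas MMP14 differs little between A2ko and Control.

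The other knockout groups of the series share the same 3 Control libraries and are given only side by side. MMP1 was at 15.5 TPM in A8ko and 8.30 and 12.2 TPM in the 2 C9ko libraries, MMP10 at 5.13, 3.01 and 2.84 TPM, and MMP13 at 8.80, 8.54 and 8.30 TPM. These values all lay below the Control range, on the opposite side from A2ko. TIMP1 and TIMP2 were above Control in A8ko and C9ko too, at 29.6 to 44.3 TPM and 57.3 to 73.4 TPM.

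Several other genes of the extracellular matrix were among those with the largest gain. LOXL4, a lysyl oxidase that cross-links collagen, stood at 25.8, 24.4 and 26.0 TPM in Control and 156 TPM in A2ko (2.58 log2 units). COL6A1 and COL6A2, the neighbouring genes on chromosome 21 for chains of microfibrillar collagen VI, stood at 6.44 to 7.70 and 3.18 to 3.94 TPM in Control and at 45.3 and 21.8 TPM in A2ko. Their A2ko values were 6.24 and 6.33 times the Control mean. LOXL4 lay below Control elsewhere in the series, at 1.35 TPM in A8ko and 4.62 and 5.41 TPM in C9ko, and COL6A1 was at 8.38 to 11.5 TPM there.

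Outside the matrix, DIO2, the deiodinase that turns thyroxine into the active thyroid hormone, stood at 0.987, 1.16 and 0.532 TPM in Control and 31.2 TPM in A2ko, 34.9 times the Control mean. TMC4, a transmembrane channel-like protein, was at 5.42 to 6.34 TPM in Control and 41.6 TPM in A2ko. PLEKHB1 was at 2.52 to 3.58 TPM in Control and 22.4 TPM in A2ko. PROS1, protein S, a cofactor of anticoagulant protein C and a ligand of TAM receptors, was at 1.46 to 1.97 TPM in Control and 13.4 TPM in A2ko. In all of these the A2ko value was clear of the Control range by several fold. Less certain were SNX22 (0.435, 0.444 and 3.50 TPM in Control, 12.9 TPM in A2ko), which overlaps the abundant PPIB on the other strand, and AGAP2-AS1 (0, 0 and 11.9 TPM in Control, 15.3 TPM in A2ko), whose Control values themselves ranged from 0 to nearly the A2ko level.

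Among genes with a symbol, the largest losses were in the small proline-rich proteins, which form cross-bridges in the cornified envelope. SPRR1A stood at 130, 124 and 122 TPM in Control 1, 2 and 3 and at 1.003 TPM in A2ko. SPRR1B stood at 221, 215 and 228 TPM in Control and 3.83 TPM in A2ko. Levels above 100 TPM in all 3 Control libraries thus stood against a few TPM in A2ko, with differences of -5.98 and -5.52 log2 units. Their sum was 347 ± 6.91 TPM (SD, n = 3) in Control and 4.83 TPM in A2ko, 71.7-fold lower.

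SPRR2E (9.12, 6.86 and 7.18 TPM in Control, 0.181 TPM in A2ko), SPRR2D (4.79, 4.49 and 5.06 TPM, 0.115 TPM) and SPRR2A (2.67, 2.33 and 2.97 TPM, listed at 0 in A2ko) followed. SPRR2 genes are near-identical copies, so reads can be assigned to the wrong member. Summed over the 6 SPRR2 genes the level was 16.9, 13.95 and 15.8 TPM in Control and 0.436 TPM in A2ko, 35.6-fold lower. The sum is given because the split of reads between copies is uncertain. How reads shared by several copies were handled is not given in the sources used here. SPRR3, the esophageal member, was low throughout, at 0.978, 0.645 and 0.431 TPM in Control and listed at 0 in A2ko, and was not counted. In all, 5 of 6 tested members were counted lower and all 6 lay below the Control range, beside 1.53% and 26.3% of all tested genes. The median difference was -2.62. SPRR2B, SPRR2F, SPRR2G, SPRR4 and SPRR5 did not pass the minimum level. SPRR1A was at 31.1 TPM in A8ko and 49.5 and 49.7 TPM in C9ko, between Control and A2ko, whereas SPRR3 was above Control there, at 3.24 to 4.47 TPM.

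The RefSeq table held no promoter for SPRR2D or SPRR2E. Those of SPRR1A, SPRR1B, SPRR2A and SPRR3 are shown because the family had the largest loss and these 4 share a motif. Each holds TGAGTCA on the forward strand within 250 bases before its start, with the first base of the motif at 108 bases before the start in SPRR1A, 141 in SPRR1B, 170 in SPRR3 and 197 in SPRR2A. The windows are chr1:152983881-152984080 (plus strand), chr1:153031003-153031202 (plus), chr1:153001549-153001748 (plus) and chr1:153057513-153057712 (minus) on GRCh38.p14. TATAAA stands 29 bases before the start in SPRR1A and SPRR3 and 30 bases before it in SPRR2A, and no match of one motif overlaps the other. With TGAGTCA in capitals, 5′ to 3′:
SPRR1A: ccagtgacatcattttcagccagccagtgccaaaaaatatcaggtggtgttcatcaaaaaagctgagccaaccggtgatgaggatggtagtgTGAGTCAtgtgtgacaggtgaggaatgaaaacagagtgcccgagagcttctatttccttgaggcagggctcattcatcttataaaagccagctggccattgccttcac
SPRR1B: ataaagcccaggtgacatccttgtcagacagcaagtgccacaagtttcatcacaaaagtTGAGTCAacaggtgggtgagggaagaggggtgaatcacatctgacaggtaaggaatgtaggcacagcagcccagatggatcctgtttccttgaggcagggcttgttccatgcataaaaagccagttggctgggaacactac
SPRR2A: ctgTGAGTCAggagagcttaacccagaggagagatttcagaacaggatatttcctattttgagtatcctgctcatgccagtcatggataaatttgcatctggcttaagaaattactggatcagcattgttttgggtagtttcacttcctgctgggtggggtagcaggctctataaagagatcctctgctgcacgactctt
SPRR3: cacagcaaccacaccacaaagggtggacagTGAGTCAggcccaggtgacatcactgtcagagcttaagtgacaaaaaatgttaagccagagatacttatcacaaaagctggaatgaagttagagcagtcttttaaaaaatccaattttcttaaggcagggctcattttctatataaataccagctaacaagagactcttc

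Among tested genes with a promoter in the table, 322 of 10963 (2.94%) held TGAGTCA in the 250 bases before the start. The share was 10 of 133 (7.52%) in genes counted lower and 12 of 379 (3.17%) in genes counted higher. Those 10 include SPRR1A, SPRR1B and SPRR2A, which were printed above because they hold the motif. Only 133 of the 261 genes counted lower had a promoter in the table. For TATAAA the shares were 5.55% of tested genes, 26 of 133 (19.5%) of those counted lower and 23 of 379 (6.07%) of those counted higher. SPRR1A and SPRR2A are among these 26. For GGAAGT, the core of ETS factor sites and likewise searched on both strands, they were 23.9% of tested genes, 25 of 133 (18.8%) of those counted lower and 51 of 379 (13.5%) of those counted higher. These are descriptions of letters in a window, and MMP7, which was not counted, also holds TGAGTCA, 67 bases before its start.

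The SPRR genes lie in the epidermal differentiation complex of chromosome 1, between the S100 genes. From S100A10 to S100A1, 28 genes were tested, of which 6 were counted lower and 1 higher, and 21 lay below the Control range. The shares over all tested genes were 1.53% lower, 3.54% higher and 26.3% below the Control range. The median difference over the region was -0.62. S100A14 was counted lower (287 TPM as the Control mean, 91.3 TPM in A2ko, -1.64 log2 units), and the abundant S100A10, S100A11, S100A6 and S100A2 were lower by 0.61 to 0.67 log2 units without being counted. S100A7, psoriasin, an antimicrobial protein of inflamed epidermis, went the other way, from a Control mean of 26.2 TPM to 60.9 TPM (1.20), and S100A9, a subunit of calprotectin, was at 492 TPM in Control and 713 TPM in A2ko (0.54) while its partner S100A8 was at 229 and 143 TPM (-0.67).

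**Figure D3:**
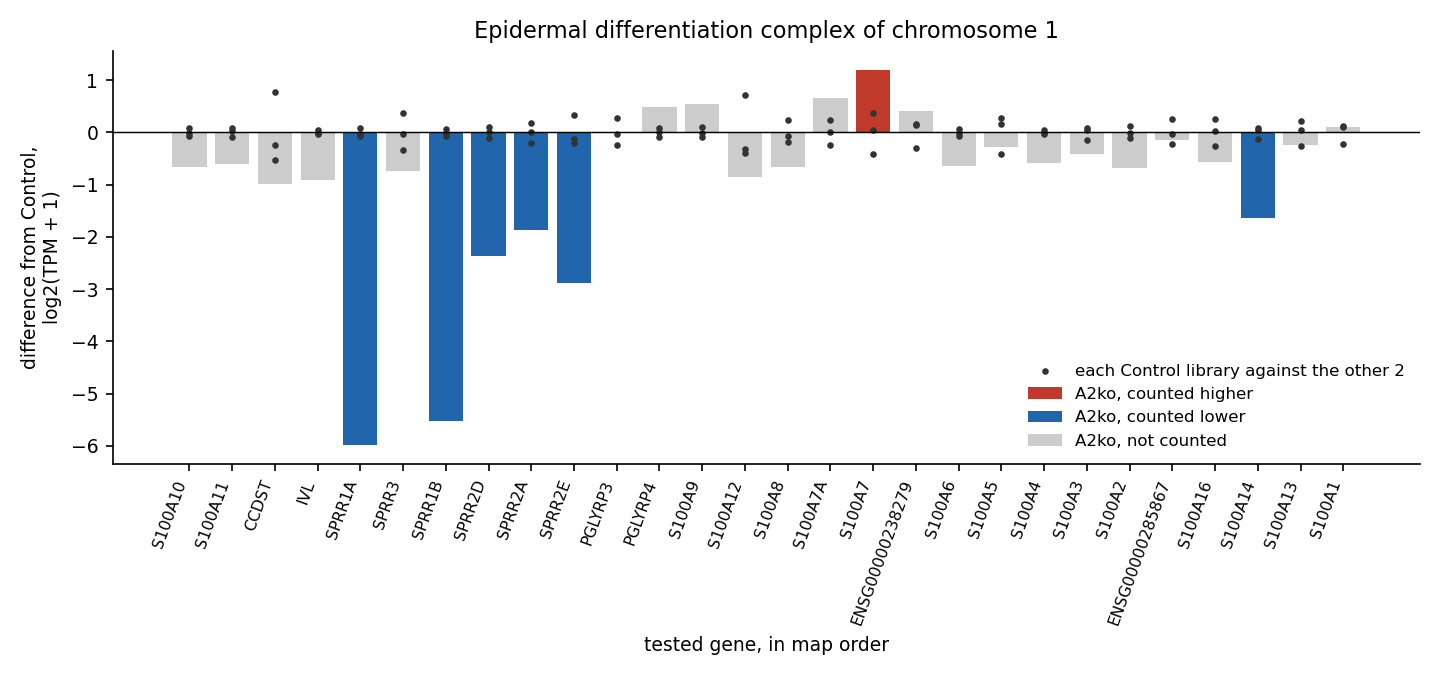
Difference from Control in log2(TPM + 1) (vertical axis) of the 28 tested genes from S100A10 to S100A1 in map order (horizontal axis): bars are A2ko less the Control mean, coloured where counted, and black points are each Control library less the mean of the other 2. The 5 counted SPRR genes and S100A14 carry the blue bars, S100A7 the red one, and the lower bars continue through most of the S100 genes.

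Of genes with a symbol, and outside mitochondrial genes, KRT5 and KRT14 had the largest losses of transcript share. KRT5, the basal type II keratin, stood at 8716, 9147 and 8887 TPM in Control and 3082 TPM in A2ko (-1.53 log2 units). KRT14, its type I partner, stood at 3549, 3796 and 4286 TPM in Control and 313 TPM in A2ko (-3.62). The pair is expressed together in basal cells, yet the loss was unequal: KRT14 was 12.4-fold lower and KRT5 2.89-fold lower. Their sum was 12794 ± 472 TPM (SD, n = 3) in Control and 3394 TPM in A2ko. KRT15, another basal type I keratin, was at 1803 to 1925 TPM in Control and 1497 TPM in A2ko, below the range but not counted. KRT5, KRT14 and KRT15 were below Control in A8ko and C9ko too, at 4237 to 5428, 867 to 1283 and 266 to 419 TPM.

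Keratins induced by wounding were lower too, with the exception of KRT17. KRT6A stood at 1426, 1360 and 1370 TPM in Control and 246 TPM in A2ko (-2.49). KRT6B and KRT6C, near-identical copies of it, differed by -2.66 and -2.32, and the sum of the 3 was 1448 ± 36.8 TPM (SD, n = 3) in Control and 256 TPM in A2ko, 5.67-fold lower. KRT16, the partner of KRT6, stood at 154, 160 and 176 TPM in Control and 61.3 TPM in A2ko (-1.40). KRT17 stood at 1031, 1079 and 1243 TPM in Control and 1749 TPM in A2ko (0.65), above every Control library though under the counting limit. KRT14, KRT16 and KRT17 are close in sequence, and their sum was 4734, 5036 and 5705 TPM in Control and 2124 TPM in A2ko. In A8ko KRT17 was at 489 TPM, and in C9ko at 1139 and 1049 TPM. KRT6A was below Control in both groups too, at 257 TPM in A8ko and 506 and 543 TPM in C9ko. So was KRT16, at 19.3 TPM in A8ko and 37.3 and 37.7 TPM in C9ko.

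Among suprabasal keratins, KRT4, of mucosal epithelium, stood at 202, 198 and 197 TPM in Control and 37.7 TPM in A2ko (-2.37), and KRT1, of cornifying epidermis, at 16.8, 19.8 and 18.9 TPM and 3.08 TPM (-2.25). Their usual type I partners differed less. KRT13, the partner of KRT4, was at 88.7 to 97.2 TPM in Control and 83.1 TPM in A2ko, and KRT10, the partner of KRT1, at 27.6 to 29.4 TPM and 17.6 TPM. KRT80 was above the Control range (52.5 to 57.4 TPM, 73.1 TPM). The simple epithelial pair KRT8 and KRT18 differed by -0.06 and -0.04, inside the Control range. In A8ko and C9ko KRT13 was at 1.681 to 2.497 TPM, so the level of KRT13 in A2ko was close to Control and that in the other edited libraries was not. KRT4 and KRT1 were below Control in A8ko and C9ko too, at 0.106 to 1.37 TPM and 0 to 0.464 TPM. KRT80 was above Control there, at 148 to 217 TPM. Keratin lists were counted at 4 of 5 for the stress keratins, 2 of 6 for suprabasal and 2 of 7 for basal and simple keratins. All of these were lower, beside 1.53% of all tested genes counted lower.

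**Figure D4:**
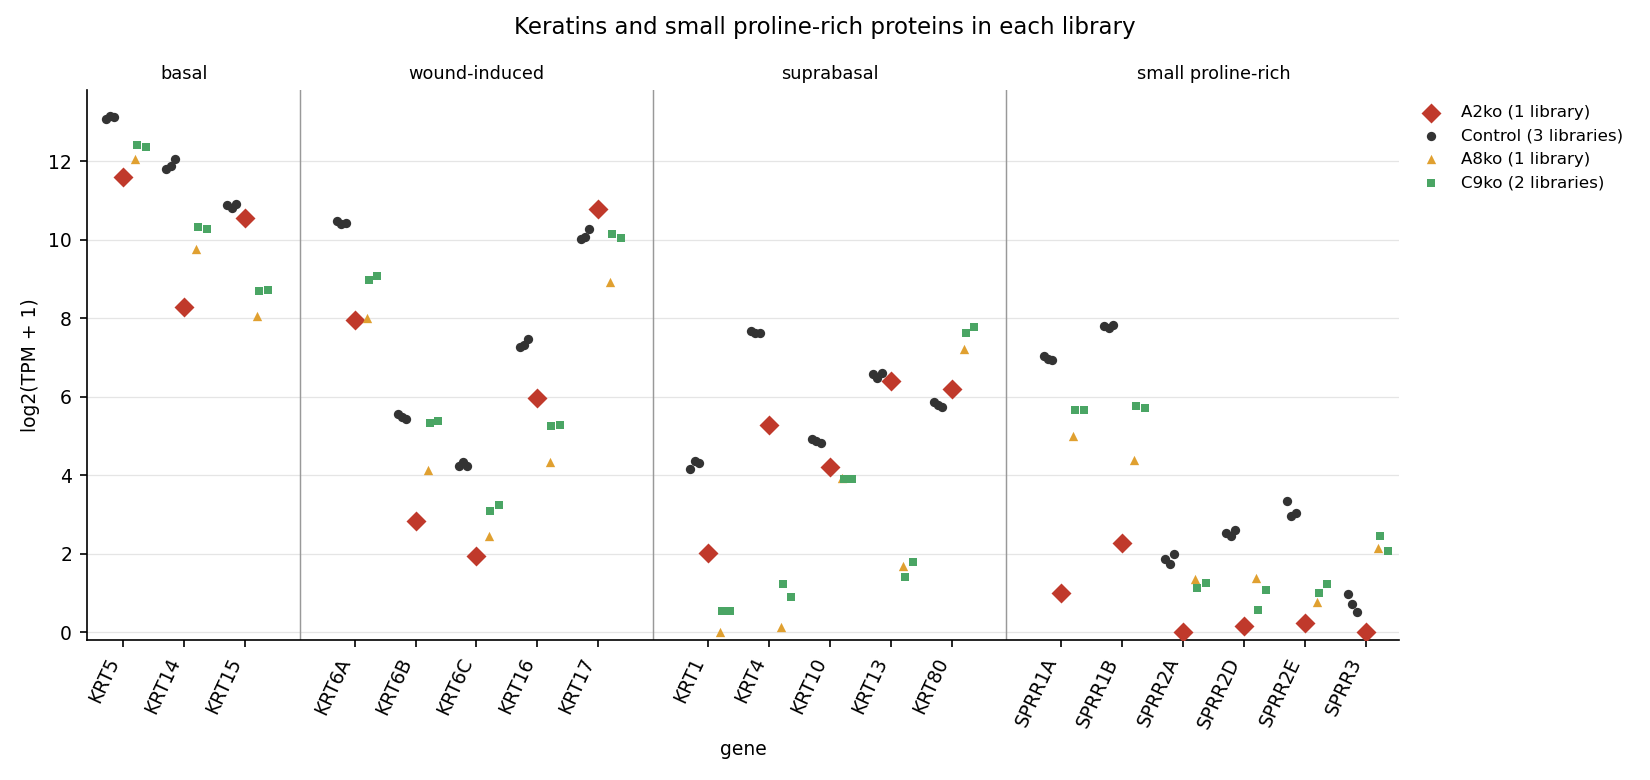
Level in log2(TPM + 1) (vertical axis) of keratins and small proline-rich proteins (horizontal axis) in each distinct library, with symbols for A2ko (red diamonds), Control (black circles), A8ko (orange triangles) and C9ko (green squares). In A2ko all genes shown but KRT17 and KRT80 lie below the 3 Control libraries, KRT13 only just; KRT17 and KRT80 lie above them.

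Other components of the cornified envelope were split. KRTDAP, a small secreted protein of differentiating keratinocytes, stood at 17.8, 14.6 and 13.3 TPM in Control and 0.462 TPM in A2ko (-3.46). SBSN (suprabasin, -1.96), CALML5 (a calmodulin-like protein of differentiated keratinocytes, -1.45), CSTA (cystatin A, a cysteine protease inhibitor, -1.23) and SPINK5 (a serine protease inhibitor, -1.11) were also counted lower. CSTA, the most abundant of them, stood at 75.7, 88.6 and 67.9 TPM in Control and 32.3 TPM in A2ko. Against this, TGM1, the transglutaminase that cross-links the envelope, was at 5.29 to 6.47 TPM in Control and 11.2 TPM in A2ko (0.84), above every Control library. Of 16 tested members 5 were counted lower and none higher, beside 1.53% and 3.54% of all tested genes. Below the Control range lay 11 and above it 4, beside 26.3% and 50.4% of all tested genes, and the median was -0.48. FLG, LORICRIN and 13 further members did not pass the minimum level. In A8ko and C9ko KRTDAP was below Control too, at 0.533 to 1.55 TPM, whereas CALML5 was inside its Control range, at 3.17 to 4.08 TPM.

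Transcription factors of squamous cells differed mostly by less than the counting limit. SOX2, a lineage factor of squamous carcinoma, was at 10.5, 10.1 and 9.87 TPM in Control and 0.404 TPM in A2ko (-2.99), and was also low in A8ko (0.483 TPM) and C9ko (0.319 and 0.150 TPM). SOX2 lies inside the long non-coding gene SOX2-OT on the same strand. GRHL3, a grainyhead factor of barrier formation, was counted lower from 1.84 to 2.24 TPM down to 0.108 TPM, and HES1, a Notch target, was counted higher (61.0, 55.5 and 58.6 TPM in Control, 128 TPM in A2ko). HES1 missed the limit after median-of-ratios scaling, with 0.96. TP63, the master factor of basal cells, stood at 271 to 296 TPM in Control and 194 TPM in A2ko (-0.53), and BNC1 at 23.1 to 26.1 and 12.1 TPM (-0.97). Counted members were 3 of 24 (12.5%), and 16 of 24 lay below the Control range, beside 5.07% and 26.3% of all tested genes.

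Further genes with the largest loss had no common list. IL20RB, a receptor subunit for interleukins of the IL-20 family, stood at 108, 98.2 and 104 TPM in Control and 10.2 TPM in A2ko (-3.22), while A8ko and C9ko had 79.6 to 91.5 TPM. PI3, elafin, an elastase inhibitor secreted by inflamed epithelium, stood at 92.4, 90.2 and 99.8 TPM and 9.49 TPM. PTN, the growth factor pleiotrophin, stood at 12.2, 10.5 and 10.2 TPM and 0.0902 TPM. CALB1, the calcium buffer calbindin, stood at 23.6, 27.6 and 27.5 TPM and 0.942 TPM. In each, all 3 Control values exceeded the A2ko value by about a factor of 10 or more. PI3, PTN and CALB1 were below Control in A8ko and C9ko too. PI3 was at 6.32 TPM in A8ko and at 25.9 and 21.0 TPM in C9ko. PTN was at 0 TPM and at 2.68 and 2.56 TPM, and CALB1 at 0.0378 TPM and at 2.90 and 1.94 TPM. LINC02987 was at 6.75 to 8.22 TPM in Control and 0.0396 TPM in A2ko and overlaps other non-coding genes on either strand. It was above Control in A8ko and C9ko, at 11.4 to 12.1 TPM. PEDS1-UBE2V1, a readthrough gene listed at 0 in A2ko, shares its exons with PEDS1 and UBE2V1, so its value is uncertain.

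Imprinted genes, which are expressed from 1 parental copy, held 3 of the clear losses. H19, a long non-coding RNA, stood at 21.4, 19.5 and 19.2 TPM in Control and 1.77 TPM in A2ko (-2.92). SNRPN, of the Prader-Willi region, stood at 6.17, 6.15 and 6.40 TPM and 0.0822 TPM (-2.74), and SNHG14, which overlaps it, at 1.48 to 2.19 TPM and 0.0166 TPM. PLAGL1, a zinc finger protein, was counted higher, at 3.03, 3.27 and 4.16 TPM in Control and 8.89 TPM in A2ko. H19 and SNRPN were also under 2.2 TPM and 0.1 TPM in A8ko and C9ko. Of 9 tested members 3 were counted lower and 1 higher (44.4%, beside 5.07% of all tested genes).

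Genes of mitosis were all lower in A2ko by a modest amount. Cyclin B1 (CCNB1), which activates CDK1 at mitotic entry, stood at 207, 186 and 198 TPM in Control and 121 TPM in A2ko (-0.70). CDC20, an activator of the anaphase-promoting complex, stood at 400, 350 and 371 TPM and 200 TPM (-0.90). MKI67, the proliferation marker, stood at 38.5, 40.3 and 41.4 TPM and 27.0 TPM (-0.55). All 35 tested members lay below the Control range, with a median of -0.55, and none was counted. Over all tested genes, 26.3% lay below the Control range, and 24.8% to 49.5% of genes in a Control library lay below the other 2. Each Control library held against the other 2 had list medians, less that of all genes, of -0.04 to 0.03, where A2ko had -0.66. The median was -0.71 after median-of-ratios scaling and -0.49 to -0.55 with each Control library left out.

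DNA replication genes were lower by less, with a median of -0.18. Of 37 tested members 27 lay below and 4 above the Control range, beside 26.3% and 50.4% of all tested genes, and none was counted. MCM4, a subunit of the replicative helicase, stood at 120, 120 and 121 TPM in Control and 85.1 TPM in A2ko. CDKN1A, the CDK inhibitor p21, was at 30.9 to 32.9 TPM in Control and 54.8 TPM in A2ko (0.77), above every Control library. BTG2, an antiproliferative gene, was counted higher (1.13) and GADD45A, a stress-induced growth arrest gene, lower (-1.31). They made up 9.52% of 21 tested CDK inhibitors and growth arrest genes, beside 5.07% of all tested genes. The median over these 21 was 0.20. BTG2 missed the limit after median-of-ratios scaling, with 0.98. In A8ko and C9ko the mitosis list was above its Control level relative to all genes, at 0.24 and 0.21.

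**Figure D5:**
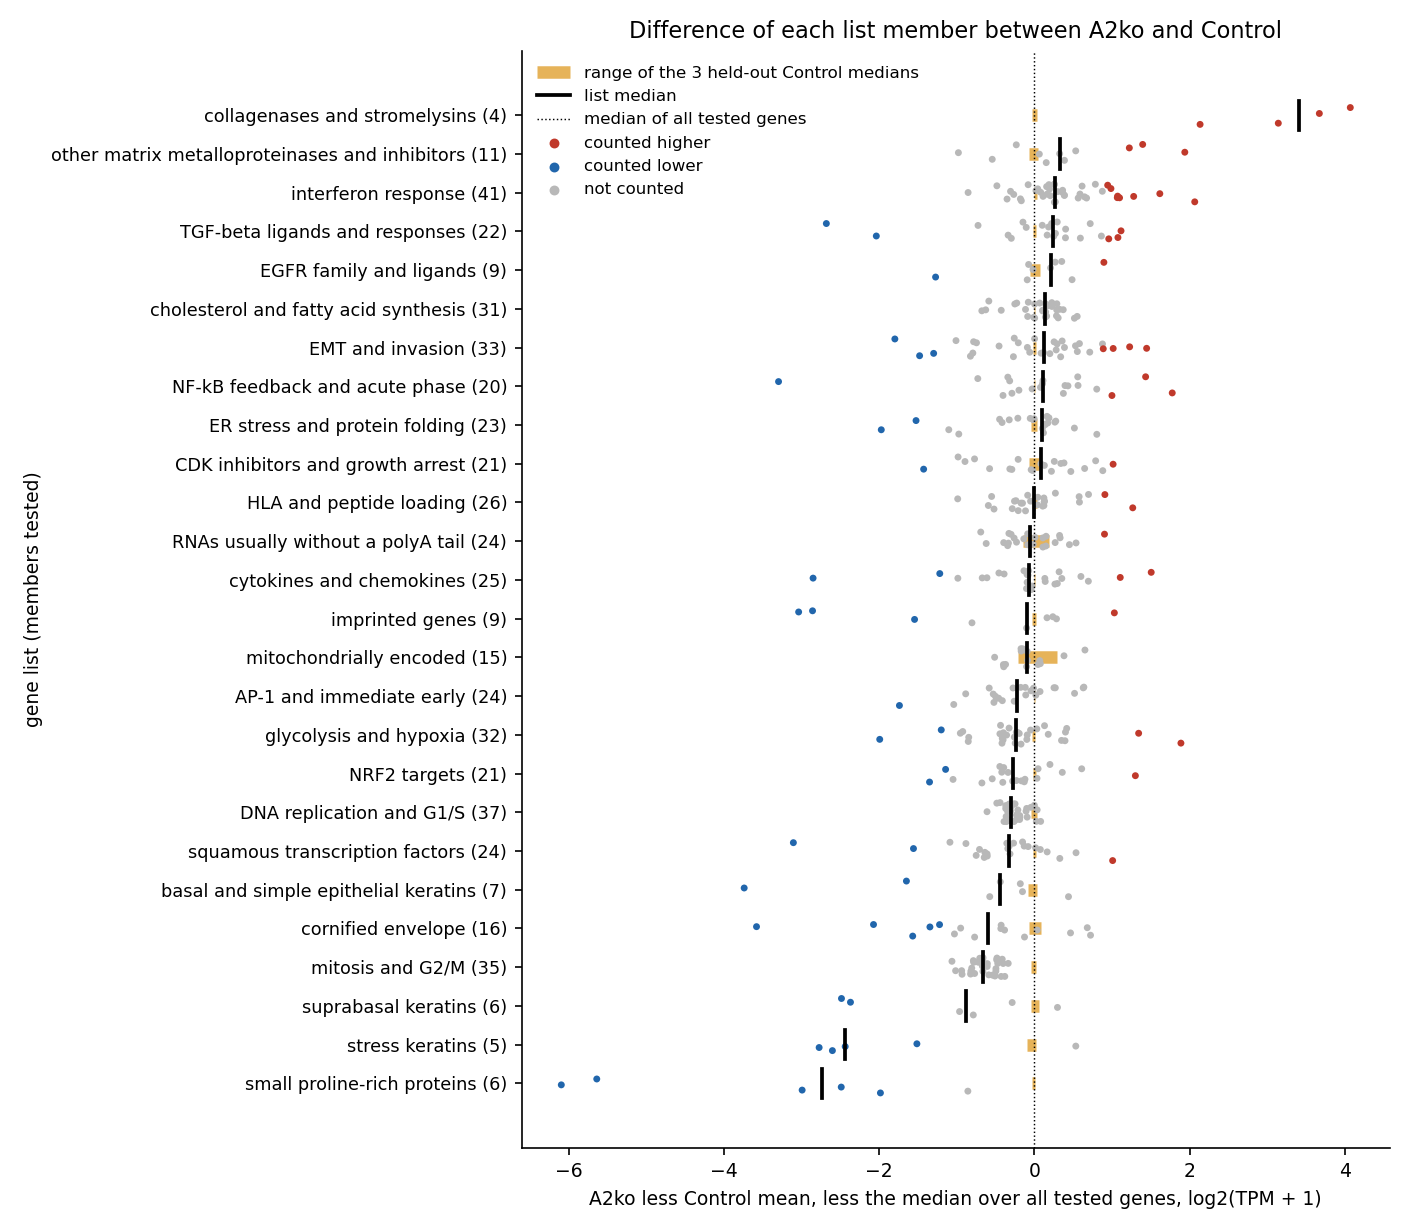
Difference of each tested list member between A2ko and the Control mean, less the median over all tested genes (horizontal axis, log2(TPM + 1)), for the 26 gene lists (vertical axis, number tested in brackets). Black bars are list medians, orange bars the range of the medians when each Control library is held against the other 2, and red and blue points are counted genes; collagenases and stromelysins lie at the top, small proline-rich proteins and stress keratins at the bottom, and all 35 mitosis genes lie to the left of the dotted line.

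Interferon-stimulated genes were mostly higher. IRF9, the DNA-binding part of the ISGF3 complex, stood at 6.25, 13.4 and 10.6 TPM in Control and 47.4 TPM in A2ko (2.18). IFI6 stood at 120, 123 and 131 TPM and 285 TPM (1.19), and MX2, an antiviral GTPase, at 12.2, 10.6 and 11.8 TPM and 32.0 TPM (1.40). IFI44L (1.73), GBP2 (1.22), OASL (1.19), IFIT1 (1.10) and IFIT2 (1.06) were the other counted members. For each, the A2ko value was above all 3 Control values, though IRF9 varied over 2-fold between Control libraries and overlaps another gene on its own strand. Of 41 tested members 8 were counted (19.5%, beside 5.07% of all tested genes), all higher. Above the Control range lay 33, beside 50.4% of all tested genes. IRF1, the factor that drives many of the interferon-gamma genes, lay below it, at 123 to 132 TPM in Control and 75.7 TPM in A2ko (-0.74). The median was 0.39, and 0.25 with 6 members counted after median-of-ratios scaling. Of the 26 tested HLA and peptide-loading genes, only HLA-DQB1 (1.39) and HLA-DMB (1.03) were counted, which is 7.69% beside 5.07% of all tested genes. HLA-DMB missed the limit after the same scaling (0.87) and without Control 1 (0.98).

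Cytokines and chemokines lay on either side of Control. IL1A, an alarmin of keratinocytes, stood at 34.9, 31.4 and 36.7 TPM in Control and 4.30 TPM in A2ko (-2.74), whereas IL1B, made from a neighbouring gene, stood at 107, 101 and 94.3 TPM and 178 TPM (0.81). CCL2, a monocyte chemokine, stood at 129, 136 and 118 TPM and 298 TPM (1.22). IL11 was counted higher (0.182 to 0.415 TPM in Control, 2.99 TPM in A2ko) and CXCL11 lower (6.27 to 8.21 and 2.78 TPM). Over 25 tested cytokines and chemokines 2 were counted in each direction (16% in all, beside 5.07% of all tested genes), with a median of 0.04. In A8ko IL1A was at 135 TPM and in C9ko at 53.94 and 59.99 TPM, above Control, and CCL2 was at 37.4 TPM in A8ko and at 1432 and 1466 TPM in C9ko.

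Among NF-kB feedback and acute phase genes CFB, complement factor B, stood at 20.9, 17.8 and 20.7 TPM in Control and 76.2 TPM in A2ko (1.89). ICAM1, the leukocyte adhesion molecule, stood at 23.8, 22.7 and 23.3 TPM and 70.1 TPM (1.55), and C3, complement component 3, at 105, 113 and 121 TPM and 246 TPM (1.12). These 3 were counted higher and PI3 lower of 20 tested (20%, beside 5.07% of all tested genes). Their Control values were close together and far from A2ko, but the list median was 0.23. C3 missed the limit after median-of-ratios scaling, with 0.95. BIRC3, an inhibitor of apoptosis, lay below the Control range (16.4 to 17.5 and 10.7 TPM). The NF-kB inhibitor NFKBIA lay above its own (107 to 130.5 and 138.5 TPM). CFB, ICAM1 and C3 were above Control in A8ko too, at 42.5, 82.9 and 179 TPM. So they were in C9ko, at 181 and 190, 103 and 101, and 444 and 417 TPM. With the median over all tested genes subtracted, A8ko had 0.86 for these 20 genes and C9ko 0.89, against 0.11 for A2ko.

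Genes of the list for epithelial-mesenchymal transition and invasion were divided. COL17A1, a hemidesmosome collagen that anchors basal cells, stood at 113, 120 and 122 TPM in Control and 36.2 TPM in A2ko (-1.68). THBS1, thrombospondin 1, stood at 365, 345 and 359 TPM and 138 TPM (-1.36), and TGFBI, a TGF-beta-induced matrix protein, at 346, 338 and 345 TPM and 151 TPM (-1.18). Counted higher were L1CAM, a neural adhesion molecule (4.602, 5.33 and 5.25 TPM, 16.9 TPM), SERPINE2 (4.73 to 5.14 TPM, 13.9 TPM), ITGA5, the fibronectin receptor subunit (18.0 to 18.8 TPM, 41.4 TPM), and SNAI1, a repressor of E-cadherin (1.11 to 2.10 TPM, 4.11 TPM). SNAI1 was near the limit, with 1.01, and missed it without Control 1, without Control 3 (0.87) and after median-of-ratios scaling (0.88). ITGA5 missed it after that scaling, with 0.97. Over 33 tested members 4 were counted higher and 3 lower (21.2%, beside 5.07% of all tested genes), with a median of 0.24. VIM, ZEB1 and ZEB2 did not pass the minimum level.

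TGF-beta ligands and responses included 2 strong losses. FST, follistatin, which binds and blocks activins, stood at 97.7, 96.2 and 101 TPM in Control and 15.8 TPM in A2ko (-2.56). CCN2, connective tissue growth factor, stood at 157, 148 and 162 TPM and 40.4 TPM (-1.92). TGFB2 (5.63 to 6.74 TPM, 15.3 TPM), BMP2 (5.52 to 6.44 TPM, 15.3 TPM) and PMEPA1, a feedback target (4.56 to 4.84 TPM, 11.1 TPM), were counted higher. PMEPA1 missed the limit after median-of-ratios scaling, with 0.93. The ligands TGFB2 and BMP2 were thus higher where FST and CCN2 were lower, and the median over 22 tested members was 0.35. Counted members made up 22.7%, beside 5.07% of all tested genes. FST was at 150 to 194 TPM in A8ko and C9ko, above Control. TGFB2, BMP2 and PMEPA1 were above Control there too, at 14.5 to 35.3, 9.58 to 11.5 and 17.4 to 22.1 TPM. CCN2 was at 171.5 TPM in A8ko, above Control, and at 138.5 and 141.7 TPM in C9ko, below it.

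Of the EGFR ligands, EREG, epiregulin, was counted higher (10.6 to 12.2 TPM in Control, 23.9 TPM in A2ko) and NRG1, neuregulin 1, lower (27.0 to 29.4 TPM, 12.1 TPM). They made up 22.2% of 9 tested genes of the EGFR family and its ligands, beside 5.07% of all tested genes. EREG, at 1.01, missed the limit after median-of-ratios scaling (0.86) and without Control 2 (0.97). Among AP-1 subunits and immediate early genes only ATF3, a stress-induced factor, was counted (33.8 to 36.4 TPM in Control, 10.8 TPM in A2ko, -1.62). That is 4.17% of 24 tested members, under the 5.07% of all tested genes. FOS was at 141, 149 and 146 TPM in Control and 244 TPM in A2ko (0.75), and FOSL1, the FRA1 subunit, at 77.3, 72.1 and 74.3 TPM and 38.9 TPM (-0.92). These subunits lay on opposite sides of the Control range, with a median of -0.10 over 24 members. In C9ko FOS was at 25.6 and 26.3 TPM and FOSL1 at 182 and 183 TPM.

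Counted members made up 12.5% of the glycolysis and hypoxia list and 14.3% of NRF2 targets, beside 5.07% of all tested genes. ALDOC, aldolase C, stood at 69.8, 64.4 and 68.7 TPM in Control and 275 TPM in A2ko (2.01), and ENO2, enolase 2, at 11.2 to 12.3 TPM and 34.2 TPM (1.46). The hypoxia-responsive CA12 (3.979 to 4.604 and 0.423 TPM) and NDRG1 (89.6 to 93.6 and 42.5 TPM) were counted lower. Of 32 tested glycolysis and hypoxia genes 19 lay below the Control range, beside 26.3% of all tested genes. HMOX1, heme oxygenase 1, was counted higher (7.06 to 7.23 TPM, 20.8 TPM), and SLC7A11, the cystine transporter (5.61 to 5.93 TPM, 1.90 TPM), and AKR1B10 were counted lower among 21 NRF2 targets. AKR1B10, at -1.03, was counted in 8 of 10 settings and missed the limit without Control 1 (-0.97).

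Of 23 tested ER stress and folding genes 2 were counted (8.7%, beside 5.07% of all tested genes), both lower. CHAC1, a glutathione-degrading enzyme (8.83 to 10.9 and 1.90 TPM, -1.86), and TRIB3, a pseudokinase (45.1 to 48.6 and 16.8 TPM, -1.41), were the counted members. ATF4, the factor of the amino acid response, stood at 498, 408 and 459 TPM in Control and 250 TPM in A2ko (-0.86), and ASNS, asparagine synthetase, at 67.0, 61.4 and 63.7 TPM and 31.8 TPM (-0.99). These 4 lay below all Control libraries, while 14 of the 23 lay above the Control range, as did 50.4% of all tested genes. The list median was 0.22. ATF4 and ASNS were chosen for mention after their values were seen. None of 31 cholesterol and fatty acid synthesis genes was counted, with 22 above and 5 below the Control range, beside 50.4% and 26.3% of all tested genes.

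Mitochondrially encoded transcripts made up 25.2% of A2ko and 23.1%, 26.9% and 23.5% of Control 1 to 3, and none of 15 was counted. MT-RNR2, the large mitochondrial ribosomal RNA, was nevertheless above the range, at 3793, 3829 and 3936 TPM in Control and 6564 TPM in A2ko (0.77). Of 24 tested RNAs that usually lack a polyA tail, RN7SK alone was counted (5.00, 1.16 and 6.74 TPM in Control, 8.43 TPM in A2ko), and 5 lay above and 5 below the Control range. RN7SK was not counted without Control 2, whose value was the lowest (0.47), or after median-of-ratios scaling (0.89).

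By absolute share, genes with a symbol were ranked, mitochondrial genes left out. The largest gains were those of FTH1, ferritin heavy chain (5619, 5779 and 5067 TPM in Control, 9072 TPM in A2ko), MT2A, a metallothionein (2656 to 2961 TPM, 4137 TPM), EEF1A1 (6332 to 7177 TPM, 7892 TPM) and NEAT1, the scaffold RNA of paraspeckles (1035, 939 and 947 TPM, 1977 TPM). FTH1 differed between the 2 C9ko libraries too, at 8969 and 3419 TPM, so its level varied more between libraries of 1 group than the A2ko difference. CLDN1, a tight junction claudin, followed (1063 to 1112 TPM, 1895 TPM), and RPL9. In the same ranking, the largest losses were those of KRT5, KRT14, GAPDH (7309 to 7858 TPM, 6218 TPM), KRT6A, RPS2 and LY6D, a marker of stratified epithelium (1641 to 1832 TPM, 931 TPM).

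Along the chromosomes, medians over runs of 25 neighbouring tested genes were compared with the most extreme run of any held-out Control library, 0.222 log2 units. Merged runs beyond it formed 66 stretches with 2224 genes. Few were large. The most negative run, chr1:151790804-153567890 from TDRKH-AS1 to S100A2, is that of the epidermal differentiation complex and had a median of -0.75 less that of all genes. The most positive run, chr19:6467207-7902021 from DENND1C to LRRC8E, had 0.51, with 19 of its 25 genes above the Control range and 5 counted higher. Over all tested genes, 50.4% lay above the Control range and 3.54% were counted higher. The same runs had -0.41 and -0.10 in A8ko and -0.41 and -0.01 in C9ko. The next run, on chromosome 20, was at -0.36.

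Counted genes were more frequent among transcripts of high GC content, from 2.3% in the quintile of tested genes with the lowest GC (median 40.1%) to 7.92% in that with the highest (median 62%). The increase was in genes counted higher, from 1.53% to 6.52%, while genes counted lower made up 0.767% and 1.41%. By mean level, the counted share was 9.82% in the next to lowest quintile (median 3.51 TPM) and 2.34% in the top quintile (median 81.7 TPM). The part of GC content in the differences was not tested. Protein-coding genes were counted at 5.22% and long non-coding genes at 4.32%. MMP1, MMP10 and MMP13 remained counted higher, and SPRR1A, SPRR1B, KRT14, KRT5 and KRT6A lower, in all 10 settings of pseudocount, filter, scaling and Control libraries at the limit of 1 log2 unit.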

How the data were processed

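The authors deposited TPM per Ensembl gene for each sample, on hg38 per the submitters' processing notes. The aligner, quantifier, annotation and use of strand are not given in the sources used here. Totals were 1000000 per library, 129.8 more in A2ko. Identical files counted as 1 library. Genes with at least 1 TPM in at least 2 distinct libraries were analysed as log2(TPM + 1), which understates differences of weak genes.

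Differences, lists, runs of 25 genes and promoter matches were computed in Python 3.11.15 with pandas 2.3.3, numpy 2.4.6 and matplotlib 3.10.9, and the scripts were tested on simulated data. Symbols were found for 14374 of the 17100 genes, and positions in GENCODE 29 for 15666. Promoters came from RefSeq (GRCh38.p14).

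Named genes are the 12 largest gains and losses with a symbol and at least 5 TPM. The 6 largest in TPM with a symbol, mitochondrial genes left out, were added. Per list, up to 4 counted members a direction and its defining members were named. Genes of the epidermal differentiation complex, and other uncounted members given with values, were chosen after their values were seen. The members and lists were chosen with earlier results of these data known. One gene was left out of the list of CDK inhibitors and growth arrest genes and is not reported here. With 1 distinct A2ko library, replicate numbers pair nothing. Alternatives changed the pseudocount, filters, scaling, counting limit and Control libraries.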

Additional observations from a re-analysis of the deposited data

Results flagged for a closer look

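Some of the genes named by rule were counted on one side of Control in A2ko and on the other side in every library of another edited group. These comparisons share the 3 Control libraries, and the difference between the edited groups was not tested. Against A8ko as well as C9ko this held for MMP10 (3.79 in A2ko), MMP13 (3.26), LOXL4 (2.58) and CXCL11 (-1.10). Against every A8ko library but not every C9ko library it held for PROS1 (2.45), MMP12 (2.25), IRF9 (2.18), TIMP3 (2.06), IFI44L (1.73), CCL2 (1.22) and IL1A (-2.74). MMP1 and TIMP3 also had C9ko means over 1 log2 unit below Control (-1.02 and -1.07), but 1 of the 2 C9ko libraries was closer than that for each gene. MMP10, MMP13 and LOXL4 were thus above Control in A2ko and below it in every A8ko and C9ko library, while CXCL11 was below Control only in A2ko. Tested genes outside the naming rule were not screened.

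Lists with at least 5 tested members were compared by their medians less that of all tested genes. Those of 5 lists lay more than 0.2 log2 units from Control, and outside the range of held-out Control libraries, on opposite sides in A2ko and A8ko. They were the interferon response (0.27 in A2ko), DNA replication and G1/S (-0.30), mitosis and G2/M (-0.66), AP-1 and immediate early genes (-0.22) and glycolysis and hypoxia (-0.24). Collagenases and stromelysins, with 4 tested members, also stood on opposite sides, with 3.41 for A2ko against -1.55 for A8ko and -1.76 for C9ko. Cytokines and chemokines stood at -0.07 in A2ko and 0.99 in A8ko, and imprinted genes at -0.10 and 0.37, nearer to Control in A2ko than the limit. These differences were not tested either.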

How the results depend on the processing

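The 867 genes counted (606 higher, 261 lower) became 1813 (1267 and 546) with a pseudocount of 0.1 and 575 (154 lower) with at least 5 TPM required in the higher of Control and A2ko. A limit of 2 log2 units gave 91 genes, 45 higher and 46 lower, and protein-coding genes alone gave 161 lower. Leaving out each Control library in turn gave 893 to 909 genes. The other filters and the removal of mitochondrial genes kept the counts within 1.5 times. Median-of-ratios scaling reversed the medians of HLA and peptide loading (-0.052) and of cytokines and chemokines (-0.089), both near 0 to begin with. The 5 TPM minimum left 1 fibroblast marker, COL1A1, with 0.976 in place of a negative median. The other list medians kept their sign: 190 moved by less than the spread between Control libraries and 84 by more. No difference of a named gene changed sign. The median of small proline-rich proteins ranged from -5.52 (5 TPM minimum) to -0.74 (no filter), since the filter sets which members enter. No paired analysis was possible because A2ko has 1 distinct library. Depth is unknown, so low levels have no counting error, and no alternative replaces a second A2ko library.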

Other observations

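Genes ranked just below the named ones, by the same measure, hold further membrane and secreted proteins. GJB2 and GJB6, the gap junction proteins connexin 26 and connexin 30 of squamous epithelium, lie near each other on chromosome 13 and were lower in A2ko, from Control means of 118 ± 8.62 and 15.9 ± 1.27 TPM (SD, n = 3) to 29.8 and 2.52 TPM. AQP3, the water and glycerol channel of basal keratinocytes, was at 621 ± 35.4 TPM in Control (SD, n = 3) and 159 TPM in A2ko. EDN1, endothelin 1, was at 28.4 ± 2.13 TPM and 5.75 TPM, and THBD, thrombomodulin, at 46.7 ± 0.396 TPM and 8.64 TPM. ANO1, a calcium-activated chloride channel, was at 43.3 ± 0.726 TPM and 10.5 TPM. AQP3, ANO1, THBD and GJB6 were below Control in A8ko and C9ko too, at 79.6 to 147, 5.47 to 9.68, 18.2 to 22.7 and 4.38 to 6.22 TPM. EDN1 was above Control there, at 75.3 to 81.5 TPM, and GJB2 lay on either side of it, at 98.6 to 136 TPM.

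On the higher side, F2R, the thrombin receptor PAR1, was at 28.1 ± 2.08 TPM in Control (SD, n = 3) and 122 TPM in A2ko. MYL9, a myosin light chain of contractile cells, was at 12.4 ± 1.26 TPM and 65.4 TPM, and FILIP1L at 14.7 ± 0.832 TPM and 68.0 TPM. APOE, apolipoprotein E, was at 0.572 ± 0.103 TPM and 6.19 TPM, and SERPINA1, alpha-1 antitrypsin, at 2.05 ± 0.502 TPM and 12.6 TPM. SERPINA1 and FILIP1L were above Control in A8ko and C9ko too, at 10.1 to 12.99 and 21.3 to 37.8 TPM. MYL9 was at 6.17 TPM in A8ko, below Control, and at 32.43 and 30.95 TPM in C9ko, above it. In A8ko and C9ko F2R was at 25.45 to 30.39 TPM and APOE at 0.195 to 1.09 TPM. THBD and F2R, both of the thrombin system, differed in opposite directions. These genes were picked after their values were seen, and they form no list.

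Identifiers without a symbol included large but unsteady differences. ENSG00000303745 was at 957, 709 and 1024 TPM in Control and 8.58 TPM in A2ko, but also at 49.1 and 1344 TPM in the 2 C9ko libraries. ENSG00000305635 was at 19.4, 49.6 and 0.742 TPM in Control and 193 TPM in A2ko. ENSG00000262526, at 38.6 TPM in A2ko, shares its strand and part of its sequence with GABARAP and CTDNEP1. ENSG00000250920 was at 26.7 to 32.4 TPM in Control and 0.0950 TPM in A2ko.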
